A study of Mus musculus with 25 samples.

Results

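The 10 genes described here carry glucose into the cell and through glycolysis: the glucose transporters Slc2a1 and Slc2a6, the hexokinases Hk1 and Hk2, the phosphofructokinase subunits Pfkl and Pfkp, their activator-making enzyme Pfkfb3, and the later enzymes Pgk1, Pkm and Ldha. They were taken by gene symbol from the 19938 genes that the array's annotation names by a single symbol. The choice was made with earlier results of these data known. Counts of these genes beside the share of all genes are therefore descriptions and not tests. All 10 had a value on all 25 arrays. The cells were sorted from Peyer's patches, the lymphoid follicles of the small intestine, of WT (wild-type) female C57BL/6 mice aged 6 to 8 weeks, with 42 mice pooled for each replicate, which the study calls independent. Peyer's patch cells were enriched for CD11c and sorted into 7 groups.

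The untreated groups were 5 replicates of CD11b+ conventional dendritic cells (cDC), 3 of CD8a+ cDC, 3 of double-negative (DN) cDC that carry neither CD11b nor CD8a, and 3 each of TIM-4- and TIM-4+ LysoMac, the lysozyme-expressing macrophages of the patch. The treated groups were 3 replicates of CD11b+ cDC and 5 of CD8a+ cDC from mice given R848, a synthetic TLR7 ligand, by gavage 9 h earlier. The cDC gates took CD11c-high BST2- cells that carry MHC class II, with SIRPa present on CD11b+ and DN cDC and absent from CD8a+ cDC. The LysoMac gate took SIRPa+ BST2+ CD4+ cells with high CD11c and low MHC class II. LysoMac and DN cDC after R848 are not analysed here, so responses to R848 are described for CD11b+ and CD8a+ cDC.

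Glycolysis turns glucose into pyruvate in the cytosol, and lactate dehydrogenase turns pyruvate into lactate and restores the NAD+ that the pathway needs. In dendritic cells and macrophages, ligands of Toll-like receptors are known to raise glycolytic flux, first through kinases that act on hexokinase and later through transcription, in part by the hypoxia-inducible factor HIF. Several glycolytic genes, among them Slc2a1, Hk2, Pgk1 and Ldha, are classical HIF targets. These are facts about the pathway and were not measured here: the arrays give transcript levels, not enzyme activity or flux.

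HIF binds DNA at hypoxia response elements, whose core is written RCGTG, where R is A or G. Only the form ACGTG was searched for here. The 250 bases before the RefSeq start sites of the 10 genes (14 windows, GRCm38.p6) were searched for these letters on both strands. At least 1 window held them for 6 of the 10 genes, Slc2a1, Hk2, Pfkfb3, Pgk1, Pkm and Ldha, and 7 of the 14 windows held them, against 16.6% of the 32851 windows of the same length in the reference table. The palindrome CACGTG, which holds the core on both strands and is also the E-box letters read by MYC and its relatives, was found in 6.02% of all windows. The windows of the 4 genes with a match whose values after R848 are described most closely are printed to show where these letters lie. Capitals mark ACGTG on either strand, and every window reads 5′ to 3′ towards the gene.

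Slc2a1, chr4:119108495-119108744, + strand: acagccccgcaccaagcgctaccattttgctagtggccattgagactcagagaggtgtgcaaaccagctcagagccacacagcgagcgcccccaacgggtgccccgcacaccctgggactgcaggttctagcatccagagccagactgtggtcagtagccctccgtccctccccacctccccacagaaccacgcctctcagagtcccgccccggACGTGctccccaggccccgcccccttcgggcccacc

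Hk2, chr6:82774455-82774704, - strand: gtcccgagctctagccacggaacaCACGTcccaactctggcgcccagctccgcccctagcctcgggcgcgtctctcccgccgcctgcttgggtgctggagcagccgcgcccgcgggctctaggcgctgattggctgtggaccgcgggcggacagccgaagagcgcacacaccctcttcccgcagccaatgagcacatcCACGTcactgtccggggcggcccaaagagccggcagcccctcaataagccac

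Pfkfb3, start site 1, chr2:11553930-11554179, - strand: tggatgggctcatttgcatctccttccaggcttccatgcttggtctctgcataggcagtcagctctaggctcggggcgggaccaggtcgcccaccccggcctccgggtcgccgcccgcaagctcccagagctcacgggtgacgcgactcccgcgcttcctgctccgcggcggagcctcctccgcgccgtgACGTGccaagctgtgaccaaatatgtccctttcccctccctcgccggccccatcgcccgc

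Ldha, start site 1, chr7:46845554-46845803, + strand: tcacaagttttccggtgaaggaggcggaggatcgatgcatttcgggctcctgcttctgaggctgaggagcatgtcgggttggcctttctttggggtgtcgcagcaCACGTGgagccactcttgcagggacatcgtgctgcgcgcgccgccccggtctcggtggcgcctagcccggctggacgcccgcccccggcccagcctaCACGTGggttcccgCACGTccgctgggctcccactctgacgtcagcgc

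The Ldha window held 5 matches, 4 of them in 2 CACGTG palindromes that begin 145 and 48 bases before the start. Slc2a1 had 1 match 36 bases before the start, Hk2 had 2, and Pfkfb3 had 1 at this start site and a CACGTG palindrome at its second. Slc2a6, Hk1, Pfkl and Pfkp had no match in their windows, which says only that ACGTG is not in these 250 bases. The other form of the core, GCGTG, was not counted, and it does occur in windows of each of these genes. A match is a description of the sequence, and binding was not measured.

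**Figure D1:**
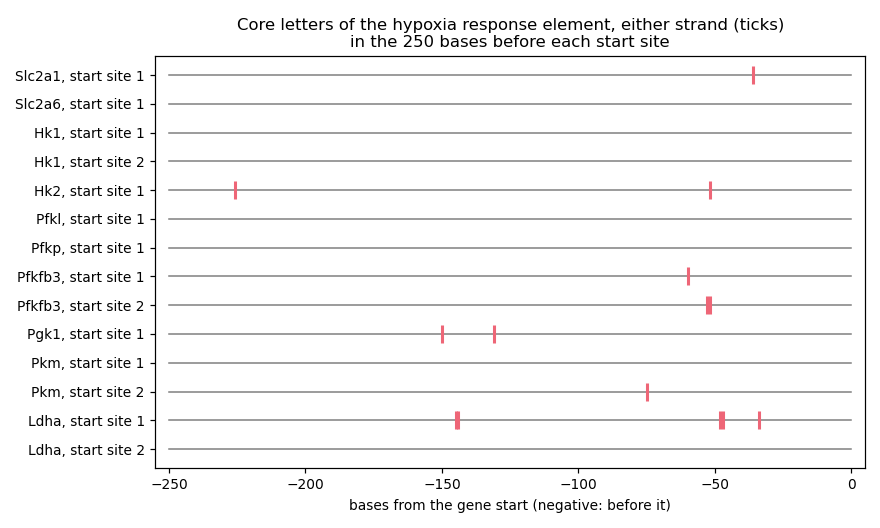
Position of the letters ACGTG, a form of the core of the hypoxia response element, before 14 RefSeq start sites of the 10 genes. Ticks mark matches on either strand in the 250 bases before each start site, and the x axis gives bases from the gene start. Matches lie in 7 windows, and the first Ldha window holds 5.

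Values are log2 signals, so a difference of 1 is a 2-fold difference. Differences were tested with limma across all genes, and adjusted p-values below 0.05 (Benjamini-Hochberg over all genes of a fit) are called. The table's columns fell into 3 array sets whose rows were in different orders: the 14 arrays of untreated CD11b+ cDC, DN cDC and LysoMac, the 3 arrays of untreated CD8a+ cDC, and the 8 R848 arrays. These sets were read from the row order, and no label names a hybridisation batch. Rows were matched across sets, and every comparison that crosses sets, including both R848 responses, has array set and group in the same place, so that they cannot be told apart. Replicates 4 and 5 of untreated CD11b+ cDC lay apart from replicates 1 to 3 on the first principal component of that group, which held 59.7% of its variance, and so did replicates 4 and 5 of R848-treated CD8a+ cDC (43.9%). Calls that change with replicates 1 to 3 of each group alone are given beside the full values. Array medians lay between 4.29 and 4.602, and no detection calls were used, so signals near them, such as Hk2 after R848 and Pfkp in LysoMac, are not shown to be above background. Differences that involve such signals are differences of log2 signal and not exact transcript ratios.

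Marker genes were read beside the labels. The cDC1 list, 6 of 12 genes measured on all arrays, averaged 9.86 (log2) in untreated CD8a+ cDC and at most 6.49 in the other untreated groups. The macrophage list, 11 of 15 genes measured, averaged 9.60 in the TIM-4- and 10.15 in the TIM-4+ LysoMac arrays and at most 7.15 elsewhere. The cDC2 list, 9 of 12 genes measured, averaged 7.33 in CD11b+, 6.61 in DN and 4.34 in CD8a+ cDC, all untreated. It averaged 8.00 in TIM-4- and 7.82 in TIM-4+ LysoMac, so it does not set CD11b+ cDC apart from LysoMac. In sorted pools, a lower share of cells that carry a transcript and less of it per cell cannot be told apart.

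Among untreated cells, LysoMac carried more of both glucose transporters and of Pfkfb3 than CD11b+ cDC, less Pfkp and slightly less Ldha. Of the 10 genes, 4 were called higher in LysoMac (12.3% of all 16969 genes tested were) and 2 lower (14.6%). The median difference of the 10 genes was 0.18, and that of all genes was -0.010. This comparison lies within 1 array set.

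Slc2a1 encodes GLUT1, the main glucose carrier of many cells. Its log2 signals were 9.49, 9.45 and 9.39 in TIM-4- LysoMac, 9.31, 9.00 and 8.88 in TIM-4+ LysoMac, 8.76, 8.48, 8.34, 9.06 and 8.91 in CD11b+ cDC, 8.49, 8.14 and 8.57 in DN cDC, and 7.09, 7.19 and 7.60 in CD8a+ cDC. The TIM-4- LysoMac arrays lay above every cDC array, the TIM-4+ LysoMac arrays overlapped those of CD11b+ cDC, and the CD8a+ arrays lay below all others. LysoMac exceeded CD11b+ cDC by 0.55 ± 0.13 (SE; adjusted p = 0.00597, limma). DN cDC and CD11b+ cDC overlapped and their difference of -0.31 ± 0.16 was not called (adjusted p = 0.408).

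Slc2a6 encodes GLUT6, a carrier found on internal membranes of phagocytes. Its signals were 10.19, 10.13 and 9.70 in TIM-4- LysoMac, 10.03, 9.78 and 9.35 in TIM-4+ LysoMac, 9.11, 9.03, 9.15, 9.23 and 9.28 in CD11b+ cDC, 8.18, 8.30 and 8.60 in DN cDC, and 5.86, 5.81 and 6.38 in CD8a+ cDC. All LysoMac arrays lay above all CD11b+ arrays, those above all DN arrays, and the CD8a+ arrays lay far below. The difference between LysoMac and CD11b+ cDC was 0.70 ± 0.13 (adjusted p = 0.000719, limma).

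Pfkfb3 makes the fructose bisphosphate that activates phosphofructokinase. Its signals were 10.09, 10.20 and 10.12 in TIM-4- LysoMac, 10.31, 10.40 and 10.15 in TIM-4+ LysoMac, 9.30, 9.24, 9.25, 9.21 and 9.58 in CD11b+ cDC, 8.90, 8.77 and 8.75 in DN cDC, and 7.91, 8.24 and 8.18 in CD8a+ cDC. The groups of this gene formed steps that did not overlap, from LysoMac down to CD8a+ cDC, and only the LysoMac groups overlapped each other. LysoMac exceeded CD11b+ cDC by 0.89 ± 0.08 (adjusted p = 7.06e-07, limma).

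Pfkp, the platelet-type phosphofructokinase subunit, ran the opposite way. Its signals were 8.45, 8.07 and 8.37 in CD8a+ cDC, 6.62, 6.65, 6.29, 6.79 and 6.98 in CD11b+ cDC, 5.68, 5.77 and 6.25 in DN cDC, 4.70, 4.74 and 4.97 in TIM-4- LysoMac, and 4.19, 4.16 and 4.87 in TIM-4+ LysoMac. No LysoMac array reached the lowest DN array, and no CD11b+ array reached the lowest CD8a+ array. LysoMac signals lay near the array medians, and they differed from those of CD11b+ cDC by -2.06 ± 0.15 (adjusted p = 1.29e-07, limma). Pfkl, the liver-type subunit, had a mean of 6.83 ± 0.11 (SD, n = 3) in TIM-4- LysoMac and 6.80 ± 0.27 (n = 3) in TIM-4+ LysoMac against 6.46 ± 0.19 (n = 5) in CD11b+ cDC. Its difference of 0.35 ± 0.11 was called (adjusted p = 0.0273), but the arrays overlapped and 7 of 21 alternatives ended the call, among them a common median for all arrays (adjusted p = 0.0553) and leaving out replicate 1 or 2 of CD11b+ cDC, of TIM-4- LysoMac or of TIM-4+ LysoMac (adjusted p from 0.0539 to 0.0709).

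Ldha makes lactate from pyruvate. Its signals were 10.24, 10.08, 10.02, 10.33 and 10.17 in CD11b+ cDC, 10.16, 10.06 and 10.09 in DN cDC, 9.995, 9.98 and 9.68 in TIM-4- LysoMac, 9.47, 9.51 and 9.43 in TIM-4+ LysoMac, and 9.53, 9.37 and 9.62 in CD8a+ cDC. CD11b+ and DN cDC overlapped, and the LysoMac arrays all lay below them. LysoMac differed from CD11b+ cDC by -0.49 ± 0.08 (adjusted p = 0.000234, limma).

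The remaining 4 genes were not called between LysoMac and CD11b+ cDC. Hk2, the inducible hexokinase, had 7.42, 7.20 and 7.32 in TIM-4- LysoMac, 7.21, 7.16 and 7.04 in TIM-4+ LysoMac, and 6.75, 7.03, 6.43, 7.57 and 7.37 in CD11b+ cDC. Replicates 4 and 5 of CD11b+ cDC reached the LysoMac range and replicates 1 to 3 did not. With replicates 1 to 3 of each group alone, Hk2 was 0.49 higher in LysoMac (adjusted p = 0.0202, limma) and Pgk1, which yields the first ATP of the pathway, was 0.36 higher (adjusted p = 0.00218). Pkm, pyruvate kinase, differed by 0.17 ± 0.15. Hk1, the constitutive hexokinase, differed by -0.53 ± 0.21, or by -0.11 with replicates 1 to 3 alone. Cyclic loess between arrays called Pgk1 (0.33, adjusted p = 0.00854) and Pkm (0.41, adjusted p = 0.029, limma), and a common median called neither. A filter on low values called Hk1 (adjusted p = 0.0403, limma).

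Between TIM-4+ and TIM-4- LysoMac 0 of the 10 genes were called with limma, while 0.265% of all genes were; Ldha alone among the 10 had an unadjusted p below 0.05. The Ldha, Slc2a1 and Pgk1 arrays of TIM-4+ LysoMac all lay below those of TIM-4- LysoMac, as did those of 5.73% of all genes. Ldha differed by -0.41 ± 0.10 (unadjusted p = 0.00153 and adjusted p = 0.245, limma across all genes), and it was called when arrays were weighted by quality (adjusted p = 0.0456). Slc2a1 differed by -0.38 ± 0.18 (adjusted p = 1, interval from -0.76 to 0.0022). The intervals of the other 8 genes all held 0 and reached as far as -0.84 for Pfkp and 0.62 for Hk1.

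DN cDC had lower values than CD11b+ cDC at 4 of the 10 genes and higher values at none that was called, against 1.27% of all genes called lower and 1.92% called higher. The median difference of the 10 genes was -0.39, and that of all genes was -0.034. All genes split into 326 higher and 216 lower as deposited, and into 248 and 270 with a common median, which moved the median of all genes to -0.11. Slc2a6 differed by -0.80 ± 0.15 (adjusted p = 0.00947), Pfkfb3 by -0.51 ± 0.10 (adjusted p = 0.0081), Pfkp by -0.77 ± 0.19 (adjusted p = 0.039) and Hk2 by -0.86 ± 0.21 (adjusted p = 0.0401, limma). Every DN array lay below every CD11b+ array at these 4 genes, as at 5.32% of all genes, with Hk2 at 6.26, 5.87 and 6.39 in DN cDC.

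The number called depended on the arrays: 1 of 10 was called with replicates 1 to 3 of each group alone (Pfkfb3), and leaving out single arrays gave between 1 and 4. The Pfkfb3 call ended with cyclic loess between arrays (-0.40, adjusted p = 0.0745, limma). Leaving out DN replicate 1 or 2 gave 1, and leaving out CD11b+ replicate 2, 4 or 5 gave 2. With the replicate number as a block 1 was called, with Slc2a6 at adjusted p = 0.072. Stromal and endothelial markers, 11 of 14 genes measured, had summed linear signals of 2013 to 3010 in DN cDC and 271 to 462 in CD11b+ cDC. Epithelial markers, 12 of 13 measured, had 1507 to 4192 in DN cDC and 607 to 2846 in CD11b+ cDC. Their part in these differences was not tested.

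**Figure D2:**
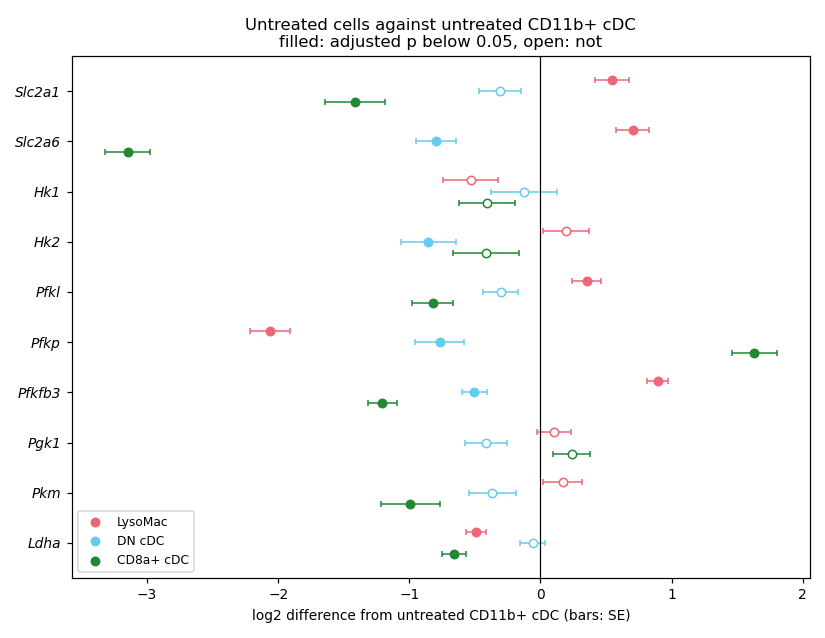
Log2 difference of each gene between untreated LysoMac, DN cDC or CD8a+ cDC and untreated CD11b+ cDC, with its standard error; filled points have adjusted p below 0.05. Pfkp differs by -2.06 in LysoMac and by 1.63 in CD8a+ cDC, and Slc2a6 by -3.15 in CD8a+ cDC.

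Untreated CD8a+ cDC, the cDC1 subset, carried less of both transporters, of Pfkfb3, Pfkl, Pkm and Ldha than CD11b+ cDC, and more Pfkp. Of the 10 genes, 6 were called lower and 1 higher, against 38.5% and 8.4% of the 15555 genes measured on all arrays. The median difference was -0.74 for the 10 genes and -0.19 for all genes. Slc2a6 was the furthest apart at -3.15 ± 0.17 (adjusted p = 3.26e-12), Slc2a1 differed by -1.41 ± 0.23 (adjusted p = 3.72e-05) and Pfkfb3 by -1.20 ± 0.11 (adjusted p = 1.16e-08, limma). Pkm differed by -0.99 ± 0.23, Pfkl by -0.82 ± 0.15 and Ldha by -0.66 ± 0.09, and Pfkp was 1.63 ± 0.17 higher (adjusted p = 1.08e-07).

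These differences cross array sets, and the CD8a+ arrays lay lower as a whole: 1306 genes were called higher and 5991 lower as deposited, 3463 against 2293 after a common median and 2805 against 2840 after cyclic loess. The 7 calls held under both scalings, with Slc2a1 at -1.16 and -1.19 and Slc2a6 at -2.90 and -2.91. Under both scalings Pgk1 was called as well, 0.49 and 0.51 higher in CD8a+ cDC, and with replicates 1 to 3 alone (0.49, adjusted p = 0.000535, limma), against 0.24 and no call with all arrays. Hk2 differed by -0.42 ± 0.25 and was not called; its row in untreated CD8a+ cDC was placed through the other untreated set, with a direct match probability of 0.8445, below the minimum of 0.95.

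LysoMac against untreated CD8a+ cDC gave 6 genes higher and 1 lower, against 40.8% and 14.1% of all genes, with the same limit on array sets. Slc2a6 was 3.85 ± 0.17 higher in LysoMac, Pfkfb3 2.10 ± 0.10, Slc2a1 1.96 ± 0.22, Pfkl 1.18 ± 0.15 and Pkm 1.16 ± 0.22, while Pfkp differed by -3.69 ± 0.16 (adjusted p = 2.45e-14, limma). Hk2 was 0.61 ± 0.24 higher (adjusted p = 0.0371), a call that ended in 10 of 18 alternatives, among them a common median (adjusted p = 0.268). The Hk2 difference rests on the same indirectly placed row of untreated CD8a+ cDC. All genes split into 6353 higher and 2192 lower as deposited, 2940 against 5177 after a common median and 3903 against 3642 after cyclic loess.

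**Figure D3:**
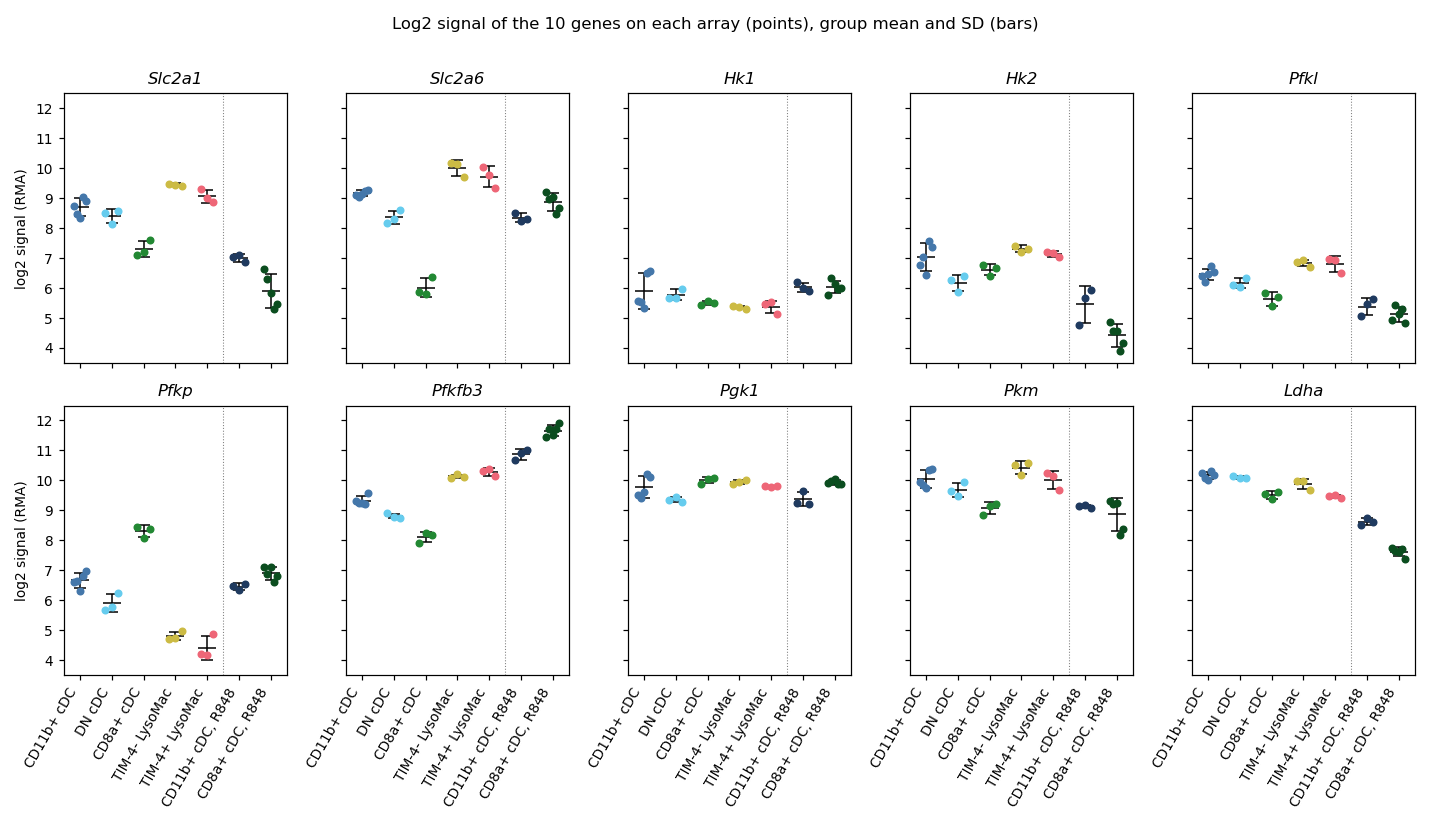
Log2 signal of each of the 10 genes on each of 25 arrays (points) with the group mean and SD (black bars); the dotted line separates untreated from R848-treated groups. Pfkfb3 is highest after R848, up to 11.92 in CD8a+ cDC, while Ldha and Hk2 are lowest there, down to 7.38 and 3.91.

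In CD11b+ cDC, arrays from R848-treated mice had less Slc2a1, Hk2, Pfkl, Pkm, Ldha and Slc2a6 than untreated arrays, and more Pfkfb3. Of the 10 genes, 7 were called lower and 1 higher, against 23.5% and 17% of all 15555 genes. Their median difference was -0.87, beside -0.034 for all genes. All genes split into 2650 higher and 3657 lower as deposited, 3683 against 2879 after a common median and 3236 against 3037 after cyclic loess.

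Slc2a1 signals after R848 were 7.04, 7.10 and 6.87, below every untreated CD11b+ array, a difference of -1.70 ± 0.23 (adjusted p = 4.17e-06, limma). Hk2 signals were 4.77, 5.67 and 5.93, also below every untreated array, with a difference of -1.58 ± 0.25 (adjusted p = 3.24e-05). Ldha signals were 8.53, 8.75 and 8.60, with a difference of -1.54 ± 0.09 (adjusted p = 4.69e-11). Slc2a1 and Hk2 at the pathway's entry and Ldha at its end had lower transcript signals on every R848 array than on any untreated one. Hk1, which acts at the same step as Hk2, was not called lower (0.13 ± 0.21). Pfkl differed by -1.08 ± 0.15 (adjusted p = 9.37e-06), Pkm by -0.92 ± 0.23 (adjusted p = 0.00244) and Slc2a6, at 8.51, 8.25 and 8.29, by -0.81 ± 0.17 (adjusted p = 0.000664), each without overlap of the arrays, which 21.4% of all genes showed in this direction.

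Pfkfb3 signals after R848 were 10.68, 10.91 and 11.02, above every untreated CD11b+ array. The gene rose by 1.55 ± 0.11 (adjusted p = 3.75e-10, limma). Its values lay between 1.48 and 1.67 in 20 alternatives. Pfkp, at 6.48, 6.35 and 6.55, overlapped the untreated arrays and its difference of -0.21 ± 0.17 was not called (adjusted p = 0.341).

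Pgk1 and Hk1 changed call with the arrays used. Pgk1 was called with all arrays (-0.40 ± 0.14, adjusted p = 0.025) and not with replicates 1 to 3 alone (-0.14, adjusted p = 0.247, limma); leaving out CD11b+ replicate 4 or 5 or R848 replicate 1 or 3 ended its call too. So did a common median (adjusted p = 0.0859), array weights (adjusted p = 0.0977) and a fit on the compared groups alone (adjusted p = 0.168, limma), which keep all arrays of these groups. Hk1 differed by 0.13 ± 0.21 with all arrays and by 0.55 with replicates 1 to 3 alone, where it was called (adjusted p = 0.00286). The untreated arrays of Hk1 were at 5.58, 5.53 and 5.32 in replicates 1 to 3 and at 6.52 and 6.56 in replicates 4 and 5. A second Hk1 probe set has no matched row in these untreated cells and is used in no test; its means were 10.49 in untreated and 11.30 in R848-treated CD8a+ cDC.

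CD8a+ cDC from R848-treated mice had more Pfkfb3 and Slc2a6 than untreated CD8a+ cDC, and less Slc2a1, Hk2, Pfkp and Ldha. Of the 10 genes, 3 were called higher and 5 lower, against 41.4% and 14.6% of all genes. The median was -0.36 for the 10 genes and 0.18 for all genes. All genes split into 6445 higher and 2270 lower as deposited, 3290 against 3200 after a common median and 3366 against 3242 after cyclic loess.

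Pfkfb3 signals after R848 were 11.46, 11.72, 11.52, 11.71 and 11.92, against 7.91, 8.24 and 8.18 before. This rise of 3.55 ± 0.11 (adjusted p = 1.62e-16, limma) was the largest among the 10 genes, and its values stayed between 3.39 and 3.62 in 20 alternatives. Slc2a6 signals were 9.20, 8.99, 9.05, 8.47 and 8.67 after R848, against 5.86, 5.81 and 6.38 in untreated CD8a+ cDC, a rise of 2.86 ± 0.17 (adjusted p = 7.61e-12). Neither gene's treated arrays came within 2 log2 units of its untreated arrays.

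Hk2 signals after R848 were 4.88, 4.58, 4.57, 3.91 and 4.15, against 6.76, 6.41 and 6.68 before, a difference in signal of -2.20 ± 0.25 (adjusted p = 2.35e-07, limma). The treated signals lay around their array medians of 4.53 to 4.602. The untreated Hk2 values come from the row placed through the other untreated set, with a direct match probability of 0.8445, below the minimum of 0.95. Ldha signals were 7.74, 7.64, 7.61, 7.72 and 7.38, a difference of -1.89 ± 0.09 (adjusted p = 3.38e-13). Slc2a1 signals were 6.65, 6.32, 5.85, 5.30 and 5.47, a difference of -1.38 ± 0.23 (adjusted p = 3.34e-05). At all 3 genes every treated array lay below every untreated CD8a+ array, as at 14.5% of all genes. Replicates 4 and 5 had the lowest Slc2a1 and Hk2 signals; with replicates 1 to 3 alone Slc2a1 differed by -1.03 (adjusted p = 0.00015) and Hk2 by -1.94 (adjusted p = 1.24e-06).

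Pfkp signals fell to 7.10, 6.88, 7.09, 6.61 and 6.80, a difference of -1.40 ± 0.17 without overlap (adjusted p = 5.61e-07, limma). Pfkl, at 4.95, 5.44, 5.13, 5.30 and 4.83, differed by -0.51 ± 0.15 (adjusted p = 0.00776), and its arrays overlapped the untreated ones at 5.39 to 5.85. Leaving out untreated replicate 1 ended the Pfkl call (adjusted p = 0.0605). Hk1 was 0.54 ± 0.21 higher (adjusted p = 0.0357, limma). That call ended with a common median (adjusted p = 0.183) and on leaving out any untreated replicate or R848 replicate 2 or 3. The second Hk1 probe set, used in no test, had means of 10.49 before and 11.30 after R848 in these cells.

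Pgk1 and Pkm showed no called response in CD8a+ cDC. Pgk1 signals were 9.91, 9.97, 10.05, 9.89 and 9.87 after R848 and 9.89, 10.06 and 10.08 before, and its difference of -0.073 ± 0.14 had an interval from -0.36 to 0.22. Pkm signals were 9.32, 9.20 and 9.23 in replicates 1 to 3 and 8.18 and 8.39 in replicates 4 and 5, against 8.84, 9.15 and 9.21 before. The Pkm interval ran from -0.67 to 0.27, so a difference within it is not excluded. Pgk1 has 3 probe sets and Pkm 2, which may share signal with near-identical copies. The other Pgk1 sets gave means of 10.02 and 9.92 before and after R848 in CD8a+ cDC. The other Pkm set gave 8.54 and 8.14 there, beside 9.07 and 8.86 for the Pkm set used, and was not tested alone.

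Other cell markers moved with the treatment in CD8a+ cDC. The cDC1 markers, 6 of 12 measured, averaged 9.81 to 9.94 in untreated CD8a+ arrays and 7.68 to 8.21 after R848, with a summed linear signal of 6834 to 7317 before and 1717 to 2211 after. Xcr1, which marks cDC1, had a mean of 10.91 before and 8.59 after in these cells, and 3.87 in R848-treated CD11b+ cDC. The cDC2 markers, 9 of 12 measured, averaged 4.14 to 4.58 before and 5.27 to 5.77 after, and the macrophage markers had summed signals of 3067 to 3291 before and 432 to 3949 after. Replicates 4 and 5 had the lowest macrophage sums, 745 and 432, below every untreated CD8a+ array. Their Slc2a6 signals, 8.47 and 8.67, were also the lowest of the treated CD8a+ arrays. A link between these values was not tested. Markers of other cells also had higher sums after R848 in CD8a+ cDC. B cell markers (6 of 8 measured) had 116 to 171 before and 379 to 802 after. Plasma cell markers (6 of 8) had 130 to 316 and 592 to 2110. T cell markers (5 of 10) had 96 to 117 and 174 to 408. NK cell and ILC markers (8 of 10) had 253 to 352 and 461 to 1000. Stromal and endothelial markers (178 to 192 and 232 to 265) were higher too. So were neutrophil (76 to 84 and 111 to 268) and erythroid markers (33 to 37 and 40 to 51). Plasmacytoid DC markers were lower (373 to 405 and 110 to 138). Untreated CD8a+ arrays lay lower as a whole, and these sums were not rescaled.

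In CD11b+ cDC, the sums of 2 lists were higher on every R848 array, from 275 to 483 in untreated cells to 1053 to 1701 for B cell markers and from 439 to 960 to 1336 to 3239 for plasma cell markers. Sums were lower for NK cell and ILC markers (1625 to 2388 and then 662 to 811), epithelial markers (607 to 2846 and 254 to 318) and macrophage markers (9588 to 12305 and 5743 to 6328). The cDC1 sums were 1714 to 1911 in untreated CD11b+ cDC and 790 to 856 after R848. Plasmacytoid DC sums were lower too (994 to 1341 and 707 to 840). So were stromal and endothelial (271 to 462 and 220 to 268) and neutrophil sums (112 to 131 and 92 to 100). The part of the other markers in the responses was not tested.

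**Figure D4:**
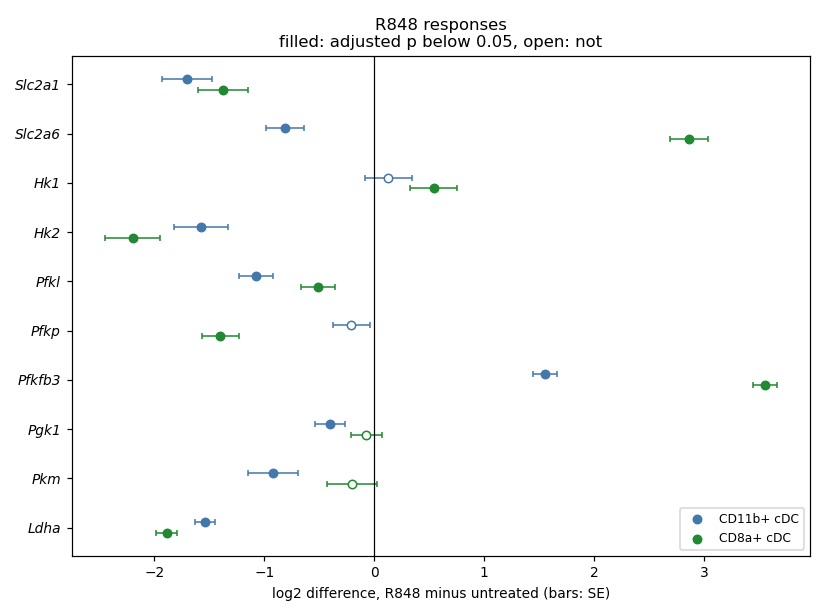
Log2 difference between R848-treated and untreated arrays for each gene in CD11b+ cDC (blue) and CD8a+ cDC (green), with its standard error; filled points have adjusted p below 0.05. Pfkfb3 is higher in both (1.55 and 3.55), Slc2a1, Hk2, Pfkl and Ldha are lower in both, and Slc2a6 has opposite signs (-0.81 and 2.86). The Hk2 row of untreated CD8a+ cDC was placed through the other untreated set.

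The R848 responses of both subsets were compared as a difference of differences. It was called for 4 of the 10 genes, 2 higher in CD8a+ cDC and 2 lower, against 26.7% and 5.88% of all genes. Slc2a6 differed by 3.67 ± 0.24 (adjusted p = 7.43e-10), falling in CD11b+ cDC and rising in CD8a+ cDC. Pfkfb3 rose by 2.00 ± 0.15 more in CD8a+ cDC (adjusted p = 4.91e-09, limma). The Pfkp response differed by -1.19 ± 0.24 (adjusted p = 0.000752).

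The Ldha response differed by -0.35 ± 0.13 (adjusted p = 0.0481), and 14 of 28 alternatives ended that call. The difference was not called for Slc2a1 (0.32 ± 0.32, interval -0.35 to 0.99), Hk2 (-0.62 ± 0.35, interval -1.35 to 0.11) or Pfkl (0.57 ± 0.22, adjusted p = 0.05). Pkm differed by 0.72 ± 0.32 (adjusted p = 0.0854) and was called with replicates 1 to 3 alone (0.90, adjusted p = 0.00318). All genes split into 4155 higher and 914 lower as deposited, 1469 against 1779 after a common median and 1740 against 1817 after cyclic loess.

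The arrays of R848-treated CD8a+ and CD11b+ cDC shared 1 row order, and 4 of the 10 genes were called between them, 2 higher in CD8a+ cDC (4.9% of all 19938 genes) and 2 lower (5.3%). Pfkfb3 was 0.80 ± 0.12 higher in CD8a+ cDC (adjusted p = 0.00349) and Pgk1 0.57 ± 0.10 higher (adjusted p = 0.00937), each without overlap. Ldha was lower, at -1.01 ± 0.10 (adjusted p = 0.000397, limma), without overlap. Slc2a1 was lower at -1.09 ± 0.29 (adjusted p = 0.0488), a call that 11 of 17 alternatives ended, among them replicates 1 to 3 alone (-0.73, adjusted p = 0.0743) and leaving out any array except CD8a+ replicate 1.

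After R848, Slc2a6 and Pfkp had differences between the subsets of 0.53 ± 0.16 (adjusted p = 0.085) and 0.44 ± 0.12 (adjusted p = 0.0563), neither called. Both were called with replicates 1 to 3 alone, at 0.73 and 0.56 (adjusted p = 0.007 and 0.0145, limma). Before treatment the same pair of subsets had differed by -3.15 in Slc2a6 and 1.63 in Pfkp. Hk2 had a difference of -1.04 ± 0.29 with overlapping arrays (adjusted p = 0.0599).

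The wider pathway was read through gene lists that include the members. Of 12 measured glucose and lactate transporters, 4 fell and none rose in CD11b+ cDC after R848, where 23.5% of all genes fell and 17% rose: Slc2a1, Slc2a6, Slc2a8 and Slc16a3, the lactate exporter MCT4, which differed by -1.44 (adjusted p = 8.6e-07, limma). Slc2a8 was named after its value was seen. In CD8a+ cDC, 4 rose and 2 fell as deposited, beside 41.4% and 14.6% of all genes, and 2 rose and 3 fell with a common median. Slc16a3 differed between the subsets' responses by 1.85 (adjusted p = 9.27e-06).

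Of 22 measured enzymes from hexokinase to lactate dehydrogenase, 10 fell and 5 rose in CD11b+ cDC, and 8 fell and 8 rose in CD8a+ cDC (9 and 4 with a common median). The shares of all genes were 23.5% lower and 17% higher in CD11b+ cDC, and 14.6% lower and 41.4% higher in CD8a+ cDC, so the 8 that rose in CD8a+ cDC are no more than the share of all genes. The list medians were -0.27 and -0.16, beside -0.034 and 0.18 for all genes. Aldoc, an aldolase, fell in both subsets (-2.15, adjusted p = 3.28e-09, and -2.36, adjusted p = 2.5e-10), and Pgam1, phosphoglycerate mutase, fell in both (-1.22 and -1.36). Tpi1, triosephosphate isomerase, differed by -1.54 in CD11b+ cDC (adjusted p = 0.000148). Against this direction, Eno3, the muscle-type enolase, rose by 2.61 in CD11b+ cDC (adjusted p = 7.37e-11) and by 3.85 in CD8a+ cDC (adjusted p = 2.77e-14), from means of 7.60 and 6.14 to 10.21 and 9.99. Eno2 rose by 1.24 in CD8a+ cDC (adjusted p = 2.31e-06), where Hk3 differed by -1.22 and Adpgk, an ADP-dependent glucokinase, by -1.09 (adjusted p = 4.17e-06 and 4.6e-05, limma). Gapdh, Eno1 and Slc2a3 are not analysed here.

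Of 7 measured regulators of glycolytic flux, Pfkfb3 among them, 2 rose and 2 fell in CD11b+ cDC, and 1 rose and 3 fell in CD8a+ cDC. Beside this list and the next 2, 23.5% of all genes fell and 17% rose in CD11b+ cDC. In CD8a+ cDC, 14.6% of all genes fell and 41.4% rose. The regulator counts in CD11b+ cDC are close to these shares. Txnip, which restrains glucose uptake, differed by -1.37 in CD8a+ cDC (adjusted p = 3.73e-06). The pentose phosphate enzymes, which branch off after hexokinase, fell in 5 of 5 measured cases in CD11b+ cDC and in 3 of 5 in CD8a+ cDC, with Taldo1 at -1.21 and -1.49 (adjusted p = 3.57e-05 and 1.49e-06, limma) and Pgls at -1.22 in CD11b+ cDC (adjusted p = 9.1e-05). Of 8 measured genes for the entry of pyruvate into mitochondria, 3 fell and 1 rose in each subset, with Pdhx at -1.06 in CD11b+ cDC (adjusted p = 2.21e-06, limma).

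Of 18 measured hypoxia-factor genes and known targets, 8 fell and 2 rose in CD11b+ cDC, and 4 fell and 5 rose in CD8a+ cDC (6 and 3 with a common median). Of all genes, 23.5% fell and 17% rose in CD11b+ cDC, and 14.6% fell and 41.4% rose in CD8a+ cDC. In CD11b+ cDC Bnip3 differed by -1.52, Higd1a by -1.62 and Vegfa by -1.06 (adjusted p = 1.34e-07, 6.77e-06 and 0.000673, limma). In CD8a+ cDC Egln1 differed by -1.38 and Ero1a by -1.22, while Ndrg1 rose by 1.51 and Vhl, which targets HIF for destruction, by 1.42 (adjusted p = 4.81e-06 and 5e-08). P4ha2 rose by 1.07 there and Car9 differed by -1.07 (adjusted p = 5.25e-10 and 3.21e-06). Hif1a itself is not analysed here. Of 17 measured kinases and factors upstream of glycolysis, 6 fell and 3 rose in CD11b+ cDC (4 and 4 with a common median), and 3 fell and 6 rose in CD8a+ cDC (4 and 5). Myc, a known activator of glycolytic genes, differed by -2.69 in CD8a+ cDC (adjusted p = 3.77e-08), where the kinase Tbk1 rose by 1.15 (adjusted p = 2.13e-08). Acod1, which makes itaconate, rose by 1.25 in CD8a+ cDC (adjusted p = 0.0139) and differed by -1.59 in CD11b+ cDC (adjusted p = 0.00382, limma).

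All 6 measured interferon-stimulated genes rose in both subsets, with medians of 1.35 in CD11b+ cDC and 2.59 in CD8a+ cDC. The shares of all genes that rose were 17% in CD11b+ cDC and 41.4% in CD8a+ cDC. Irf7 rose by 3.80 and 3.65 (adjusted p = 3.35e-14 and 1.23e-14) and Mx1 by 3.44 and 3.92 (adjusted p = 2.64e-12 and 4.64e-14, limma). The list holds 18 genes, and those without a value on all arrays are not analysed here.

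**Figure D5:**
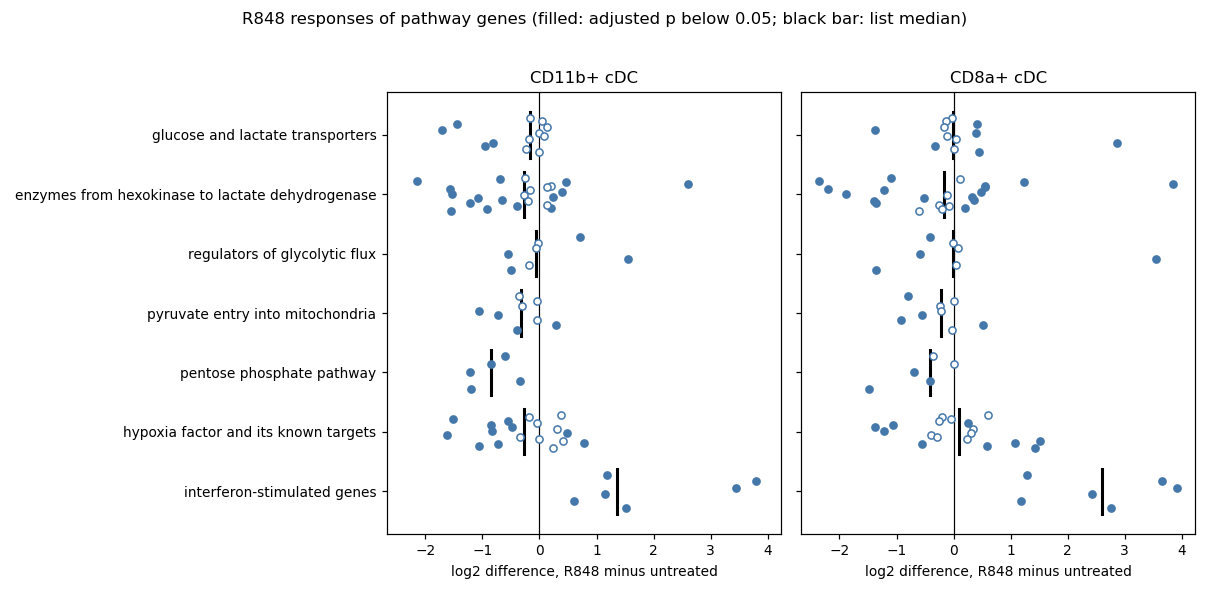
Log2 difference between R848-treated and untreated arrays for each measured gene of 7 lists in CD11b+ cDC (left) and CD8a+ cDC (right); filled points have adjusted p below 0.05 and black bars are list medians. The 5 pentose phosphate genes lie at or below 0 on the left, and the 6 interferon-stimulated genes lie above 0 in both panels.

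Among untreated cells, 3 of 23 measured enzymes were higher and 4 lower in LysoMac than in CD11b+ cDC, shares near the 12.3% and 14.6% of all genes. Ldhb, the heart-type lactate dehydrogenase, was 2.58 higher (adjusted p = 3.5e-09), beside the lower Ldha, and Hk3, a hexokinase of myeloid cells, was 1.88 higher (adjusted p = 1.38e-07). Aldoc and Eno3 were lower, at -1.82 and -1.20 (adjusted p = 2.52e-07 and 6.37e-06, limma). Of 12 transporters 6 were higher and none lower, both transporter members included, with Slc16a7, the lactate and pyruvate carrier MCT2, 1.88 higher (adjusted p = 1.61e-07). Of 19 upstream kinases and factors 6 were higher and 4 lower: Acod1 was 4.75 higher and Ikbke, a kinase known to act upstream of hexokinase in dendritic cells, 3.32 higher (adjusted p = 8.52e-09 and 2.8e-12). Aldoc was also the 1 enzyme of the list called between TIM-4+ and TIM-4- LysoMac, at -1.07 (adjusted p = 0.0436).

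Over the 7 group means, Slc2a1 ran most closely with Pfkl (r = 0.98), Pkm (0.96), Hk2 (0.92) and Ldha (0.85) among the members, while Pfkfb3 and Ldha had r = -0.76 and Slc2a1 and Pfkp had r = -0.69. These are descriptions over 7 points that share array sets. Among 4908 genes whose means ranged over 1 log2 unit or more, the genes most like Slc2a1 were Pgm2, Camta1, Retreg1 and Spred2 (r from 0.991 to 0.995), and those most like Pfkfb3 were Mov10, Ssh1, Ifih1 and Peak1 (r from 0.985 to 0.991). Hk2 was most like Pigt, Nfatc1, Lamtor1 and Trappc2l, and Ldha most like Rc3h1, Hibch, Imp3 and Prss30. The order of group means ran from TIM-4- LysoMac to R848-treated CD8a+ cDC for Slc2a1 and Hk2, over ranges of 3.53 and 2.90. It ran from R848-treated to untreated CD8a+ cDC for Pfkfb3, over 3.55.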

How the data were processed

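Each sample was amplified from 2 to 20 ng of RNA and hybridised to an Affymetrix Mouse Gene 1.0 ST array. The deposited values are log2 signals, made by the authors with RMA in Affymetrix Expression Console 1.4.1, per the submitters' processing notes; a joint normalization of all arrays is not given in the sources used here.

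Altogether, 35556 rows carried identifiers that fit the R848 columns. Arrays correlated at 0.939 or more within a set and at 0.0187 to 0.0520 across sets, so rows of both untreated sets were matched in order to the R848 rows with a pair hidden Markov model, and 80.4% and 82.7% of 28939 rows were matched. A match needed the same partner under 3 gap settings, a probability of at least 0.95 and neighbours correlated at 0.6 or more, or the same row through the other untreated set, a route added after Hk2 had been lost. In a simulation that matched CD8a+ to CD11b+ profiles within the R848 set, at most 0.191% of matches were wrong. At least 79.2% of the changed rows were accepted. The simulation stays inside 1 array set, so it does not give the error across sets. With rows rolled 5000 places out of order, 322 rows of untreated CD11b+ cDC and 397 of untreated CD8a+ cDC were still accepted. The R848 titles also carry words for steady state, and treatment was taken from the other labels.

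Differences were fitted with limma 3.58.1 in R 4.3.3 on the 14 untreated arrays, the 8 R848 arrays or all 25, without a replicate block, with Benjamini-Hochberg adjustment over all genes. The fit was tested on simulated data, where 78% to 94% of genes changed by 1 log2 unit were recovered. False calls made up 3.54% to 7.04% of the calls there. Their share was 6.76% and 6.4% for the R848 responses of CD11b+ and CD8a+ cDC. Of a gene's probe sets, the one present on most arrays with the highest mean was used. The labels state no pairing by replicate number. Same-numbered deviations correlated at -0.184 to 0.132 and other-numbered ones at -0.125 to 0.217. Between TIM-4+ and TIM-4- LysoMac these ranges were 0.0314 to 0.132 and -0.106 to 0.0647. With 3 same-numbered pairs for each 2 groups, these correlations cannot decide whether the numbers pair samples. Beside the 10 genes, list genes called with a log2 difference of at least 1 could be named, at most 6 per list; they are named for the pathway lists in the R848 responses, and elsewhere only in part. The members and lists were chosen with earlier results of these data known. Array number limits the precision. Alternatives were scaling, array weights, variance moderation, a low-value filter, probe set averaging, stricter matching and arrays left out. Stricter matching kept no row for Hk2 or Pfkl in the 14 untreated arrays, so it did not test them. Hk2 also had no directly matched row in untreated CD8a+ cDC.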

Additional observations from a re-analysis of the deposited data

Results flagged for a closer look

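Pfkfb3 on 1 array of untreated CD11b+ cDC, replicate 5, lay apart from the others of its group: its log2 signal was 9.58, and the next was 9.30. Of 20 groups of values tested in this way 1 was singled out, and chance singles out about 1 in 20. The R848 response of CD8a+ cDC minus that of CD11b+ cDC differed from 0 by the test of the difference itself (limma) for 4 genes: by 3.67 for Slc2a6, 2.00 for Pfkfb3, -1.19 for Pfkp and -0.35 for Ldha. These differences cross array sets, which cannot be told apart from the groups.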

How the results depend on the processing

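Of 1808 values of the 10 genes under alternatives, 1656 kept their direction and their side of the threshold, 83 lost a call and 46 gained one. The other 23, from 11 results called on neither side, changed sign without a call, among them Ldha between LysoMac and CD8a+ cDC (0.17, and -0.11 with a common median). Of the called values, 0 changed direction. None of these values tests Hk2 or Pfkl under stricter matching, which kept no row for them in the 14 untreated arrays. Array weights called 78 genes and 1 member between TIM-4+ and TIM-4- LysoMac, against 45 and 0. Between DN and CD11b+ cDC, a fit on these groups alone called 332 genes and 2 members, the replicate block 1 member and replicates 1 to 3 alone, chosen after seeing the data, 1 member. Leaving out single arrays gave 311 to 591 genes and 1 to 4 members there. Between the R848-treated subsets, array weights and the low-value filter each called 7 members, against 4. The low-value filter, which tests fewer genes, called 4135 genes in the R848 response of CD11b+ cDC, 4543 in that of CD8a+ cDC, 3915 between untreated CD8a+ and CD11b+ cDC, 4980 between LysoMac and CD8a+ cDC and 2888 in the subset difference, where a common median called 3248 and the cause was not tested.

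Leaving out single arrays otherwise gave 4132 to 4591 genes and 5 to 7 members (LysoMac against CD11b+ cDC), 31 to 41 and 0 to 0 (TIM-4), 1410 to 1957 and 3 to 5 (R848-treated subsets), 5213 to 6204 and 7 to 8 (R848, CD11b+), 7333 to 8464 and 6 to 8 (R848, CD8a+), 5820 to 7111 and 7 to 8 (untreated CD8a+ against CD11b+), 7302 to 8315 and 6 to 7 (LysoMac against CD8a+) and 4084 to 5090 and 3 to 5 (subset difference). The labels state no pairing by replicate number, and with the replicate block 9 of 48 member calls were lost and 4 gained. Groups of 3 to 5 arrays limit what can be called.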
